A study of Bos taurus with 6 samples.

Results

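Leukocyte lineage genes, which mark white blood cells and their macrophage, granulocyte, T cell, B cell and natural killer branches, were followed in bovine cumulus cells. The 46 genes were chosen by name, and a gene counted as measured when a probe set carried its symbol, and no other, in the platform annotation. This left 36 genes with 51 probe sets, of 9155 genes named in the same way over 24016 probe sets. The other 10 (CD37, WAS, CD163, CSF3R, ITGAX, SPI1, MRC1, LYZ, CCR7 and CD79B) had no probe set under this rule and were not analysed here. For counts and medians, each gene was read from its probe set with the highest mean over the arrays.

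Cumulus cells are the somatic cells that enclose the oocyte. They were stripped by pipetting from cumulus-oocyte complexes of crossbred cows (Bos indicus x Bos taurus) killed at slaughter, and RNA of pooled cells was hybridised to 6 Affymetrix arrays. The large-follicle group (3 arrays) came from follicles at least 8 mm wide, whose complexes the submitters class as competent. The small-follicle group (3 arrays) came from follicles 1 to 3 mm wide, classed as incompetent. Both groups were limited to complexes with an even, granular oocyte cytoplasm and several compact cumulus layers, and no labelled step sorted the cells or removed leukocytes. The labels state neither the cows' age, nor how many cows or complexes a pool holds, nor what a replicate number marks, so p-values reflect only the spread among pools.

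Leukocytes carry the phosphatase CD45, encoded by PTPRC, and a set of actin and adhesion proteins that let them crawl and adhere. Macrophages, known as residents of the ovarian stroma and theca that gather around ovulation and atresia, add the lipopolysaccharide co-receptor CD14, the lysosomal protein CD68, the CSF1 receptor and the oxidase of the respiratory burst. T cells are known by the CD3 chains and B cells by CD79 and CD20. The comparison asks whether transcripts of these lineages in cumulus pools differ with follicle size, and how evenly they are spread over the pools.

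All values are log2 probe set signals, so a difference of 1 is 2-fold. Array medians lay between 5.64 and 5.68, and the number of arrays limits the precision. Of 13 measured granulosa and cumulus markers, which check the labelled cell type, 12 had a mean signal above the median of all probe set means (5.67). Of the 36 leukocyte lineage genes 5 did (AIF1, CSF1R, CXCR4, CYBA and SELPLG), and 25 lay above the lower quartile (3.83). Signals of different probe sets do not measure amounts of different transcripts, and these deposited values carry no detection call. In a bulk pool, fewer cells of a type and less RNA per cell cannot be told apart.

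Of the 36 leukocyte lineage genes 3 were called, a share near that of all genes, and genes that did not pass may still differ. CXCR4, CORO1A and LCP1 rose in large-follicle arrays, none fell, and 33 did not pass (limma, Benjamini-Hochberg adjusted p under 0.05 over all 24016 probe sets). Counting the called genes, 8 of the 36 (22.2%) had an unadjusted p under 0.05, against 31.2% of all 9155 genes. The 3 higher genes are 8.33% of the 36, where 5.72% of all probe sets were called higher, and the 0 lower genes stand against 7.16% called lower. Counted per gene in the same way as the 36, 7.08% of all genes were called higher and 8.3% lower. Signals of the groups did not overlap in 4 genes on the higher side (11.1%, with a background of 14.7%) and in 2 on the lower side (5.56%, with a background of 16.3%). Over genes rather than probe sets these backgrounds are 17.6% and 18.9%. The shares of the 36 lie near or under those of the whole table. The median difference over the 36 genes was 0.20, against 0.01 over all 9155 genes, and 30 of the 36 were positive (83.3%, against 51.5% of all genes).

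One pool carried much of that shift. Large-follicle replicate 1 had the highest signal of the 6 arrays in 23 of the 36 genes, 63.9%, where it was highest in 13.3% of all genes. Without it the median difference was 0.07 and 1 gene, CXCR4, was called higher, with 3.54% of all probe sets called higher in that fit. Without small-follicle replicate 3 instead, the median stayed at 0.20, and CYBA was called beside CXCR4, CORO1A and LCP1.

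**Figure D1:**
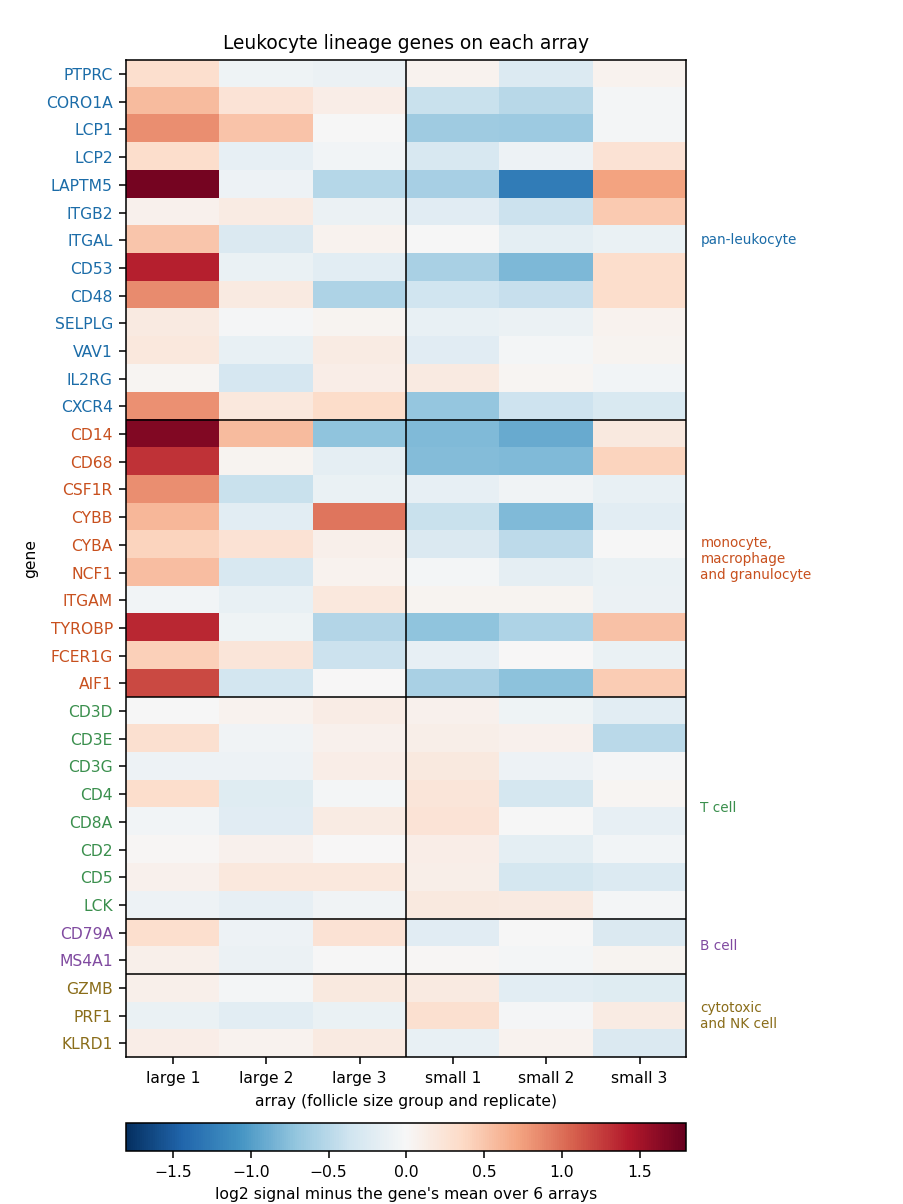
Each row is a leukocyte lineage gene and each column an array, large-follicle arrays left of small-follicle arrays; colour gives the log2 signal minus the gene's mean over the 6 arrays. The strongest red sits in large-follicle replicate 1 among pan-leukocyte and macrophage genes such as LAPTM5, CD14, TYROBP and CD53, with a paler red in small-follicle replicate 3, while the rows of T, B and cytotoxic cells are pale throughout.

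The called genes are all among the 13 pan-leukocyte genes measured, of which 10 did not pass, and the median difference there was 0.20, or 0.07 without large-follicle replicate 1. CXCR4, the receptor of the chemokine CXCL12, is also known from granulosa cells and so is no strict leukocyte marker. It read 7.01, 6.38 and 6.52 in large-follicle arrays and 5.49, 5.81 and 5.92 in small-follicle arrays. All 3 large-follicle arrays lay above all small-follicle arrays, and the difference was 0.90 ± 0.18 (SE; limma, Benjamini-Hochberg adjusted p = 0.016), 1.86-fold. It stayed past the threshold without large-follicle replicate 1 (0.71, limma adjusted p = 0.0368), but not in the fit without small-follicle replicate 1 (0.77, limma adjusted p = 0.0512).

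CORO1A, coronin of the leukocyte actin cortex, read 4.55, 4.23 and 4.11 in large-follicle arrays, against 3.58, 3.49 and 3.95 in small-follicle arrays. The groups did not overlap, with 0.16 between the lowest large-follicle array and the highest small-follicle one, and the difference was 0.62 ± 0.16 (SE; limma adjusted p = 0.0371). LCP1, the actin bundler L-plastin, read 5.17, 4.84 and 4.32 in large-follicle arrays and 3.69, 3.68 and 4.30 in small-follicle arrays. Large-follicle replicate 3 and small-follicle replicate 3 were nearly level here, and the difference was 0.89 ± 0.24 (SE; limma adjusted p = 0.0457). Without large-follicle replicate 1 neither gene was called, at 0.50 for CORO1A and 0.69 for LCP1. Both calls were also lost without large-follicle replicate 2 (0.66 and 0.85), small-follicle replicate 1 (0.58 and 0.79) or small-follicle replicate 2 (0.53 and 0.78).

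The marker that defines leukocytes, PTPRC, was low and flat. It read 3.83, 3.45 and 3.43 in large-follicle arrays and 3.60, 3.28 and 3.59 in small-follicle arrays, and 20.5% of all probe sets had a lower mean. The groups overlapped, and the difference was 0.08 with a 95% interval of -0.25 to 0.41. Its other probe sets differed by -0.09 and -0.00, so none of the 3 differed by more than 0.1. ITGB2, the common beta chain of the leukocyte integrins, read 4.44, 4.51 and 4.25 in large-follicle arrays and 4.16, 3.97 and 4.83 in small-follicle arrays, and its highest signal was in small-follicle replicate 3 (difference 0.08, limma adjusted p = 0.86).

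LAPTM5, a lysosomal membrane protein of blood cells, had the widest spread. It read 7.01, 5.20 and 4.78 in large-follicle arrays, against 4.70, 4.04 and 6.02 in small-follicle arrays. One array of each group stood high, replicate 1 of the large and replicate 3 of the small follicles, so the difference of 0.74 came with an SE of 0.63 and an interval of -0.70 to 2.19. CD53, a tetraspanin of leukocytes, read 5.47, 3.96 and 3.88 in large-follicle arrays and 3.49, 3.27 and 4.39 in small-follicle arrays, with the same 2 arrays highest (0.72 ± 0.44, SE). CD48, an adhesion molecule that binds CD2, read 4.76, 4.07 and 3.36 in large-follicle arrays and 3.55, 3.50 and 4.23 in small-follicle arrays (0.30 ± 0.34, SE). CD53, CD48 and AIF1 were picked for array values after those were seen.

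IL2RG, the gamma chain shared by several interleukin receptors, was the lowest of the pan-leukocyte differences at -0.10. It read 4.13, 3.79 and 4.21 in large-follicle arrays and 4.26, 4.12 and 4.04 in small-follicle arrays, and the groups overlapped. LCP2, ITGAL, SELPLG and VAV1 differed by 0.08 to 0.20 and did not pass.

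**Figure D2:**
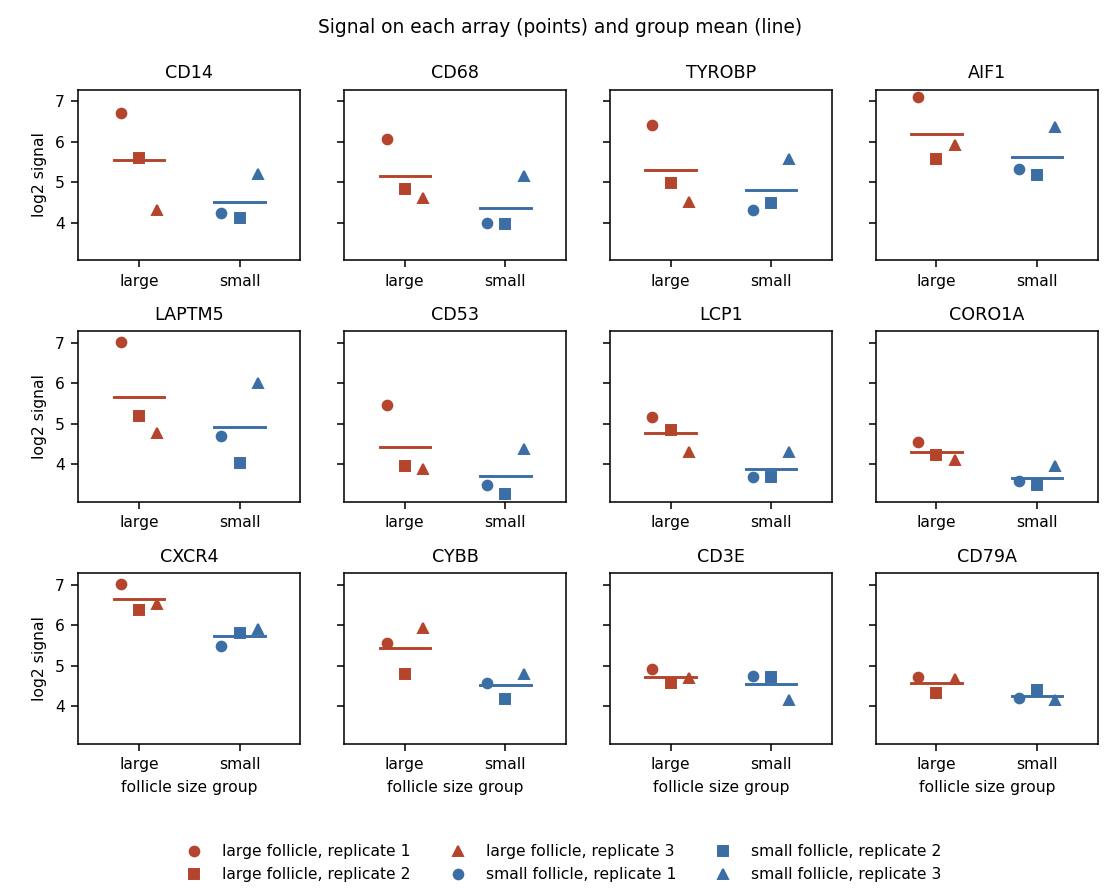
Log2 signal of 12 genes, 1 point per array (circle, square and triangle for replicates 1, 2 and 3) with the group mean as a line, large follicles left of small. In CD14, CD68, TYROBP, AIF1, LAPTM5 and CD53 the circle of the large-follicle group and the triangle of the small-follicle group stand above their group means, while CXCR4 separates the groups, and CD3E and CD79A stay within 4.15 and 4.92.

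Of the 10 measured monocyte, macrophage and granulocyte genes none was called at its brightest probe set, although all 10 differences were positive (median 0.50). Without large-follicle replicate 1 the median was 0.08, and CSF1R (-0.15), TYROBP (-0.05) and NCF1 (-0.01) were negative. Without small-follicle replicate 3 the median was 0.76, and CYBA alone of these genes passed (0.62, limma adjusted p = 0.0297). CD14 showed the largest difference of the 36 genes and no call with all arrays. It read 6.70, 5.60 and 4.31 in large-follicle arrays and 4.23, 4.12 and 5.21 in small-follicle arrays. Large-follicle replicate 3 lay below small-follicle replicate 3, and the difference was 1.02 ± 0.54 (SE; limma adjusted p = 0.282), with 0.43 left without large-follicle replicate 1. A second, dimmer CD14 probe set differed by 0.19 and was again highest in large-follicle replicate 1, at 4.76.

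CD68 read 6.06, 4.82 and 4.60 in large-follicle arrays and 3.98, 3.97 and 5.16 in small-follicle arrays, a difference of 0.79 ± 0.43 (SE). TYROBP, the adaptor DAP12 that passes on signals of myeloid and natural killer receptors, read 6.41, 4.97 and 4.52 in large-follicle arrays and 4.32, 4.49 and 5.57 in small-follicle arrays (0.51 ± 0.49, SE). AIF1, the macrophage protein IBA1, read 7.09, 5.58 and 5.91 in large-follicle arrays and 5.32, 5.17 and 6.36 in small-follicle arrays (0.58 ± 0.42, SE). In each of the 3 genes large-follicle replicate 1 was highest and small-follicle replicate 3 second, above both other large-follicle arrays. Without large-follicle replicate 1 the differences were 0.34 for CD68, -0.05 for TYROBP and 0.13 for AIF1. Without small-follicle replicate 3 they were 1.19, 0.90 and 0.95, none of them called.

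CSF1R and FCER1G were high in 1 or 2 arrays of the large-follicle group and not in small-follicle replicate 3. CSF1R, the receptor through which CSF1 keeps macrophages alive, read 7.10, 5.86 and 6.14 in large-follicle arrays and 6.11, 6.20 and 6.13 in small-follicle arrays. Large-follicle replicate 1 alone stood out, and without it the difference of 0.22 became -0.15. FCER1G, the gamma chain of Fc receptors, read 4.24, 4.04 and 3.43 in large-follicle arrays and 3.67, 3.82 and 3.70 in small-follicle arrays (0.17 ± 0.19, SE).

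CYBB, the catalytic subunit of the phagocyte NADPH oxidase, read 5.57, 4.79 and 5.94 in large-follicle arrays, against 4.58, 4.18 and 4.79 in small-follicle arrays, so its highest array was large-follicle replicate 3. The difference was 0.92 ± 0.28 (SE; limma adjusted p = 0.0697), with large-follicle replicate 2 and small-follicle replicate 3 level. Its other probe set, with 5.68, 4.89 and 6.11 in large-follicle arrays and 4.13, 3.97 and 4.85 in small-follicle arrays, was called at 1.24 ± 0.32 (SE; limma adjusted p = 0.04). That call did not hold without large-follicle replicate 1 or 3 or small-follicle replicate 1 or 2 (0.97 to 1.18, with limma adjusted p of 0.102 to 0.131). CYBA, the partner of CYBB in the membrane and also of oxidases outside leukocytes, averaged 7.25 ± 0.16 in large-follicle arrays and 6.76 ± 0.24 in small-follicle arrays (SD, n = 3 each). The groups did not overlap, but the gene did not pass (0.50 ± 0.14, SE; limma adjusted p = 0.0557). NCF1, a cytosolic subunit, was highest in large-follicle replicate 1 (4.05) and differed by 0.22, and ITGAM, the integrin alpha M of myeloid cells, differed by 0.01, where 4.93% of all probe sets were dimmer than that of ITGAM.

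**Figure D3:**
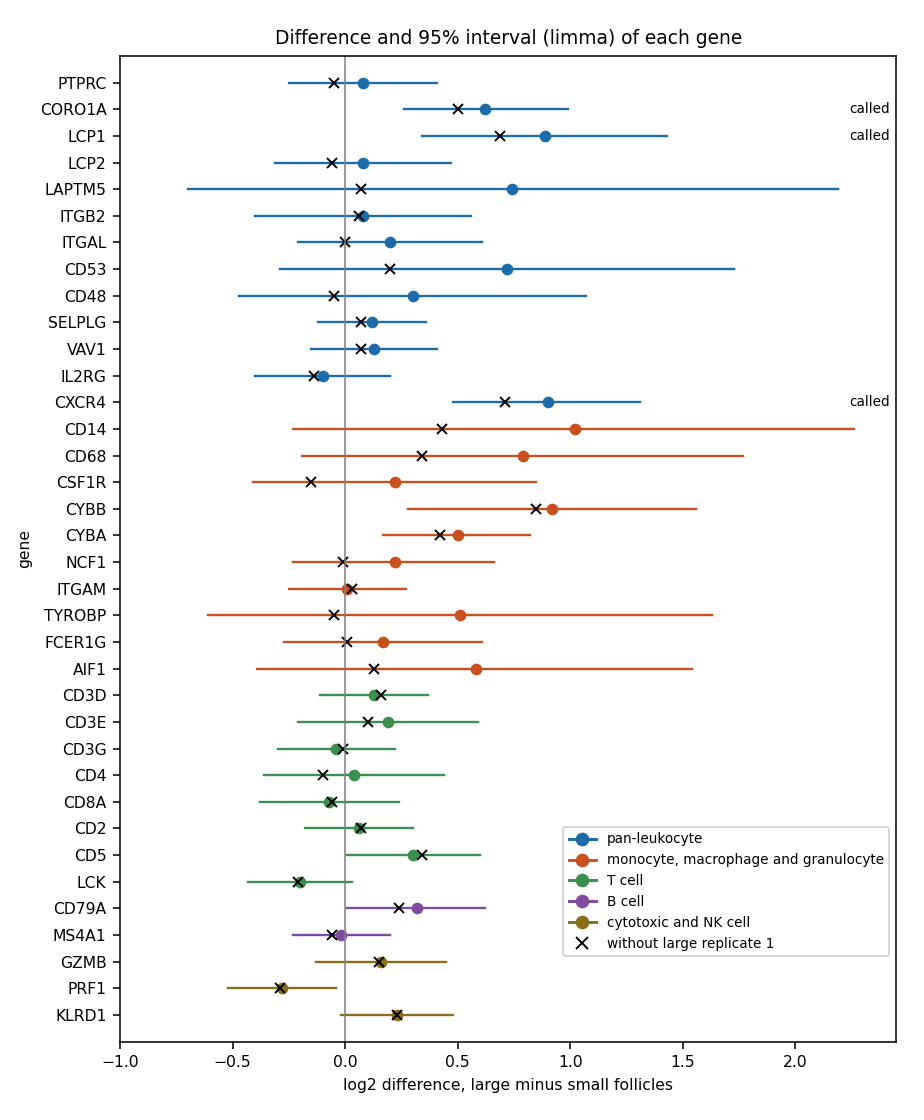
Log2 difference, large minus small follicles, with its 95% interval for each of the 36 genes (dots, coloured by lineage) and the difference without large-follicle replicate 1 (crosses). The 3 called genes are marked; the intervals of LAPTM5, CD14, TYROBP and CD53 are wide and cross 0, and their crosses lie to the left of their dots, whereas lymphoid genes sit within -0.28 and 0.32.

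Lymphoid genes showed no such spread, but without detection calls it is not known whether their probe sets could have shown one. None of them had a mean above the median of all probe set means. Above the lower quartile lay 6 of the 8 T cell, 1 of the 2 B cell and 1 of the 3 cytotoxic genes. Of 8 T cell genes none was called, 5 differences were positive and the median was 0.05. CD3E, a chain of the T cell receptor complex, read 4.92, 4.57 and 4.71 in large-follicle arrays and 4.75, 4.72 and 4.16 in small-follicle arrays, with overlapping groups. CD4, the co-receptor of helper T cells, read 4.66, 4.13 and 4.32 in large-follicle arrays and 4.57, 4.03 and 4.39 in small-follicle arrays. LCK, the kinase bound to CD4 and CD8, read 4.28, 4.22 and 4.30 in large-follicle arrays and 4.54, 4.53 and 4.33 in small-follicle arrays. All large-follicle arrays were lower for LCK, but the difference of -0.20 did not pass (limma adjusted p = 0.242), and its other 2 probe sets differed by 0.11 and 0.06. The intervals of the T cell genes all lay between -0.43 and 0.60.

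CD79A, a chain of the B cell receptor complex, read 4.72, 4.33 and 4.67 in large-follicle arrays and 4.21, 4.41 and 4.15 in small-follicle arrays (0.32 ± 0.13, SE; limma adjusted p = 0.167). MS4A1, which encodes CD20, read 3.42, 3.23 and 3.32 in large-follicle arrays and 3.35, 3.29 and 3.38 in small-follicle arrays. Neither B cell gene passed, and MS4A1 differed by -0.02. Of the cytotoxic and natural killer genes, GZMB, a granule protease, read 3.58, 3.45 and 3.66 in large-follicle arrays and 3.64, 3.29 and 3.27 in small-follicle arrays. PRF1, the pore-forming perforin, read 4.03, 3.96 and 4.03 in large-follicle arrays and 4.43, 4.13 and 4.30 in small-follicle arrays, the lowest difference of the 36 genes at -0.28 (limma adjusted p = 0.13). The large-follicle arrays all lay below the small-follicle ones for PRF1, without a call.

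The 2 arrays that stood high for macrophage genes were compared with the other arrays of their own group, a measure chosen after the values were seen and given as a description. Large-follicle replicate 1 exceeded the mean of large-follicle replicates 2 and 3 by more than 0.5 in 13 of the 36 genes (36.1%, against 2.26% of all 9155 genes). Small-follicle replicate 3 exceeded the mean of small-follicle replicates 1 and 2 by more than 0.5 in 9 (25%, against 2.81% of all genes). Both held for 8 genes, LCP1, LAPTM5, CD53, CD48, CD14, CD68, TYROBP and AIF1, which is 22.2% of the 36, against 0.808% of all genes. By lineage these were 4 of 13 pan-leukocyte genes, 4 of 10 monocyte, macrophage and granulocyte genes, and 0 of the 8 T cell, 2 B cell and 3 cytotoxic genes. Whether the lineages differ in this was not tested.

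**Figure D4:**
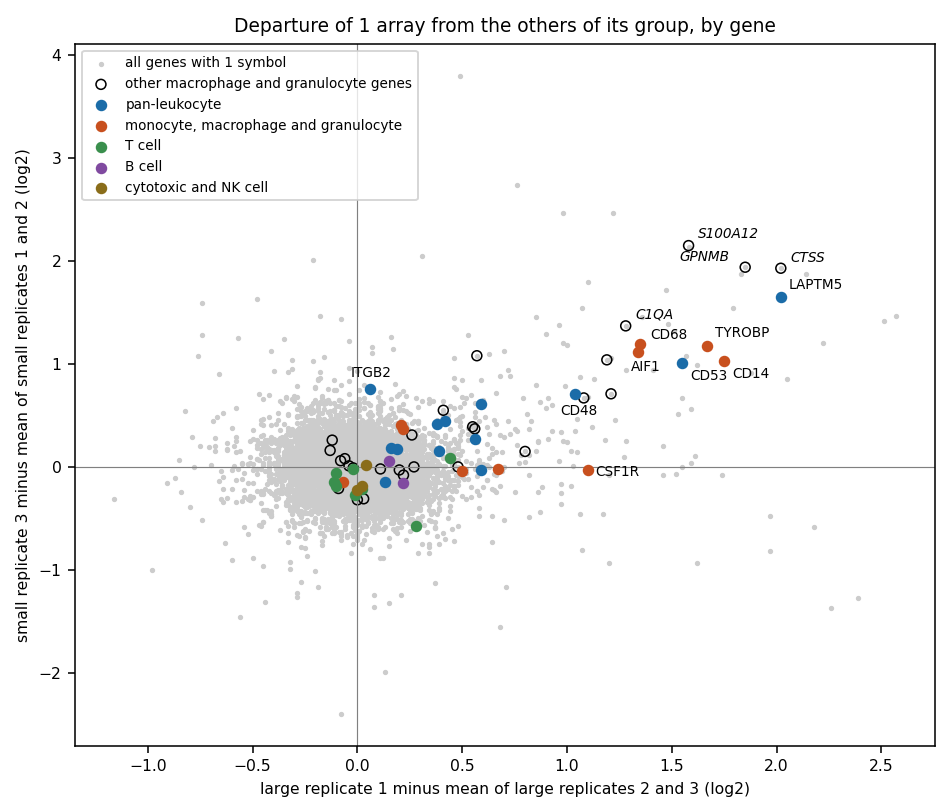
For each gene, large-follicle replicate 1 minus the mean of the other large-follicle arrays (horizontal, log2) and small-follicle replicate 3 minus the mean of the other small-follicle arrays (vertical, log2). Grey points are all 9155 genes, filled colours the leukocyte lineage genes, and open circles other macrophage and granulocyte genes; LAPTM5, TYROBP, CD14, CD53, CD68 and AIF1 lie far to the upper right with CTSS, GPNMB and S100A12, and T cell genes lie near the origin.

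Other macrophage and granulocyte genes, from a separate list, had the same order of arrays in part. Of its 27 measured genes 2 rose and 25 did not pass, and the median difference was 0.30, or 0.14 without large-follicle replicate 1. CEBPB, a transcription factor used well beyond leukocytes, rose by 0.93 ± 0.22 (SE; limma adjusted p = 0.0282) and S100A9, a calcium-binding protein of granulocytes and monocytes, by 0.42 ± 0.11 (SE; limma adjusted p = 0.0362), and without large-follicle replicate 1 neither was called (0.85 and 0.33). Leaving out other single arrays also ended the S100A9 call each time, and the CEBPB call each time except without large-follicle replicate 3. Both arrays stood more than 0.5 above their groups in 8 of the 27 (29.6%): C1QA, C1QB, CTSS, FCGR1A, GPNMB, S100A8, S100A12 and VSIG4. C1QA, a chain of complement C1q made by macrophages, read 7.79, 6.79 and 6.23 in large-follicle arrays and 5.35, 5.24 and 6.66 in small-follicle arrays. CTSS, a lysosomal protease of antigen-presenting cells, read 7.96, 6.29 and 5.58 in large-follicle arrays and 4.77, 5.23 and 6.93 in small-follicle arrays. S100A12, a granulocyte and monocyte protein, read 6.70, 6.19 and 4.06 in large-follicle arrays and 3.45, 4.08 and 5.91 in small-follicle arrays, so here large-follicle replicate 2 was high as well. None of these 3 was called with all arrays, and C1QA passed without small-follicle replicate 3 (1.64, limma adjusted p = 0.0385).

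Of 21 other leukocyte genes, FYB1, an adaptor of T cells and myeloid cells, rose by 0.38 ± 0.10 (SE; limma adjusted p = 0.0389). Its signal was low, with 18% of all probe sets dimmer. The call was lost when any 1 of the arrays was left out (limma adjusted p of 0.0549 to 0.124). None of the 21 fell, and 20 did not pass. Among 20 ligands and partners of the receptors, VCAM1, the ligand of an integrin of leukocytes, rose by 0.76 ± 0.16 (SE; limma adjusted p = 0.0183), past the threshold no longer without replicate 1 or 2 of either group (0.66 to 0.73), and 19 did not pass. CXCL12, the ligand of CXCR4, read 6.08, 6.87 and 5.17 in large-follicle arrays and 6.07, 6.53 and 6.10 in small-follicle arrays, and CSF1, a ligand of CSF1R, lay between 5.18 and 5.48 in all arrays. Neither ligand passed, at -0.19 and 0.14. Of 12 MHC class II genes, whose products present antigen on macrophages, dendritic cells and B cells, BOLA-DQB1 rose by 2.82 (limma adjusted p = 0.00912) and BOLA-DMB by 0.90 (0.0303, lost without any large-follicle array or small-follicle replicate 3). The BOLA-DQB1 probe set may also read near-identical DQ genes. BOLA-DRA, the alpha chain of DR, read 7.03, 5.66 and 5.98 in large-follicle arrays and 5.17, 5.31 and 6.30 in small-follicle arrays and did not pass.

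**Figure D5:**
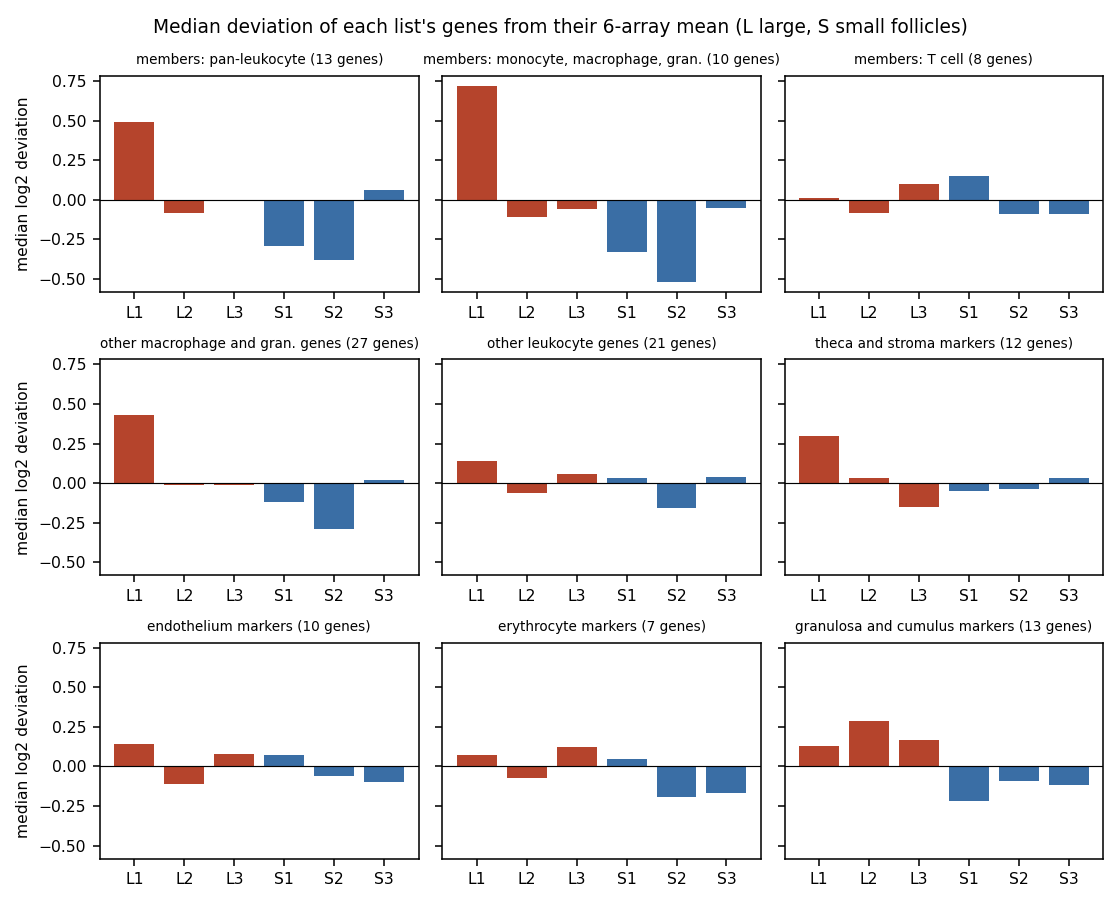
Median over the genes of each list of the log2 signal minus the gene's mean over the 6 arrays, as bars per array (L1 to L3 large-follicle, S1 to S3 small-follicle replicates). In the monocyte, macrophage and granulocyte genes L1 stands at 0.72 with every other array at or below -0.05, while T cell genes stay between -0.09 and 0.15 and granulosa and cumulus markers are above 0 in L1 to L3 and below 0 in S1 to S3.

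Markers of the labelled cells and of other cell types were read on the same arrays. Of the 13 granulosa and cumulus markers 6 rose, 1 fell and 6 did not pass, with a median difference of 0.31. CYP19A1, the aromatase of estrogen synthesis, rose by 2.14 ± 0.22 (SE; limma adjusted p = 0.00141), CYP11A1, the first enzyme of steroid synthesis, by 1.72 ± 0.16 (SE; limma adjusted p = 0.00107) and INHBA, an activin subunit, by 1.14 ± 0.10 (SE; limma adjusted p = 0.00107), while GATM fell (limma adjusted p = 0.0315), a call that ended without small-follicle replicate 1 (-1.23) or 3 (-1.01). Their part in the CXCR4 difference was not tested. Of 12 theca and stroma markers NR2F2 fell by 0.76 and 11 did not pass, and 3 (DCN, LUM and COL3A1) were more than 0.5 above their groups in both large-follicle replicate 1 and small-follicle replicate 3 (25%). COL3A1, a fibrillar collagen of stroma, read 6.22, 4.89 and 4.82 in large-follicle arrays and 5.85, 5.88 and 7.33 in small-follicle arrays. STAR, which moves cholesterol into mitochondria and marks steroidogenic cells such as theca, read 6.92, 5.68 and 4.94 in large-follicle arrays and 4.77, 5.04 and 5.01 in small-follicle arrays, so it was high in large-follicle replicate 1 and not in small-follicle replicate 3. Other markers of this list went both ways. PDGFRA had the largest difference of the 12, 1.37 without overlap of the groups, and did not pass (limma adjusted p = 0.0683). Large-follicle replicate 1 and small-follicle replicate 3 departed from their groups by 0.46 and 0.86 for PDGFRA and by 0.69 and -0.04 for CYP17A1. For INSL3 the departures were -0.19 and -1.17, and for MYH11 -0.60 and 0.38. The departures were -0.59 and 0.01 for ACTA2, and 0.18 and 0.05 for COL1A1. In large-follicle replicate 1, 5 of the 12 markers were more than 0.5 above their group and 2 more than 0.5 below. The linear signal summed over the 12 markers ran from 2268 to 2767 in large-follicle arrays and from 2460 to 2944 in small-follicle arrays. The same sum over the 10 monocyte, macrophage and granulocyte genes was 787, 427 and 425 in large-follicle arrays and 324, 306 and 457 in small-follicle arrays. Bright markers weigh most in a linear sum, among the 12 INSL3 and MYH11, both lower in large-follicle replicate 1 than in the rest of its group. The median deviation of the 12 markers from their 6-array mean was 0.30 in large-follicle replicate 1 and -0.15 to 0.03 in the other arrays. The part of stromal or theca cells in the leukocyte values was not tested.

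No marker of endothelium (10 measured), erythrocytes (7), platelets (3) or oocytes (8) stood more than 0.5 above its group in both arrays. Of all genes 0.808% did, so lists this short cannot show whether these cell types follow the 2 arrays. Endothelial markers summed to linear signals of 150 to 172 in large-follicle arrays and 140 to 161 in small-follicle arrays, and oocyte markers to 181 to 187 in large-follicle arrays and 161 to 175 in small-follicle arrays. The erythrocyte sum was 277 to 286 in large-follicle arrays and 137 to 168 in small-follicle arrays, and the platelet sum 562 to 701 in large-follicle arrays and 847 to 1227 in small-follicle arrays. Of the 7 erythrocyte markers, HBM, a haemoglobin gene and the brightest of them, rose by 1.54 (limma adjusted p = 0.000708), and 6 did not pass. Among the 6, HBA differed by 0.40 without overlap of the groups (limma adjusted p = 0.0851). The others were AHSP at 0.19, SLC4A1 at 0.08, ALAS2 at -0.01, HBB at -0.02 and EPB42 at -0.04. Of the 3 platelet markers ITGB3, which platelets share with other cells and which read 9.08 to 9.41 in large-follicle arrays and 9.69 to 10.23 in small-follicle arrays, fell by 0.69 (limma adjusted p = 0.023), and ITGA2B (-0.02) and PF4 (-0.14) did not pass and were far dimmer. TEK, an endothelial receptor, fell by 0.57 (limma adjusted p = 0.00691), whereas 9 of the 10 endothelial markers did not pass and 7 differences were positive, up to 0.46 for VWF. The ITGB3 call was lost without replicate 2 or 3 of either group (-0.71 to -0.55). An index of RNA quality, 3' minus 5' signal over 6 bovine control transcripts, was 2.15, 1.77 and 2.01 in large-follicle arrays and 2.68, 2.53 and 2.16 in small-follicle arrays. The 2 arrays with high macrophage genes were nearly level on it, at 2.15 and 2.16. Within its own group, large-follicle replicate 1 had the highest index and small-follicle replicate 3 the lowest. Group means were 1.98 in large-follicle and 2.46 in small-follicle arrays, without overlap, so the index cannot be told apart from follicle size. With this index as a covariate none of the 36 genes was called, and 215 probe sets were called in all. The differences were then 0.92 for CXCR4, 0.48 for CORO1A and 0.57 for LCP1, and the median over the 36 was 0.31. The part of RNA quality in the leukocyte values was not tested further.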

How the data were processed

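The authors deposited log2 probe set signals between 1.80 and 14.39, which the submitters' processing notes credit to RMA without a version; further settings were not available to this work. Apart from 112 control probe sets, all 24016 were tested with limma 3.58.1 under R 4.3.3: lmFit and eBayes with a constant prior variance, large minus small follicles, 2-sided, Benjamini-Hochberg adjusted at 0.05, unfiltered and unblocked. The code was first tested on simulated data.

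The genes, their lineages and the other lists were chosen with earlier results of these data known. Array values are given for called members, a set of defining markers, and the 5 largest and 3 lowest differences; other lists give up to 4 called genes. Other genes were picked after their values were seen. The symbols of all 36 genes are current in RefSeq (ARS-UCD2.0). Alternatives were a replicate block, leaving out arrays or replicate numbers, filters, scalings, array weights, another prior, probe set choices, a covariate and a threshold of 0.1. Figures used python 3.11.15 and matplotlib 3.10.9.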

Additional observations from a re-analysis of the deposited data

How the results depend on the processing

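The number of leukocyte lineage genes called higher, 3 as reported, was 5 with array weights, with the mean of all probe sets of a gene and at a threshold of 0.1, and 0 when the RNA quality index entered as a covariate, where CXCR4 stood at 0.92 and the median difference at 0.31. CYBA, not called as reported, passed with array weights, either scaling, the trended robust prior, both filters and probe set means, and CYBB with array weights, probe set means and the replicate block. CORO1A and LCP1 lost their calls with cyclic loess scaling and with the replicate block, and LCP1 also with quantile scaling. No gene was called lower in any of these fits. Leaving out 1 array or 1 replicate number gave 0 to 5 higher genes. CD14 was among them without large-follicle replicate 3 and without both arrays numbered 3 (1.63 to 1.98), and in no other fit. These leave-out fits gave 727 to 2477 called probe sets in the whole table, where 3094 were called with all arrays, against 215 with the covariate. Fewer arrays also mean fewer degrees of freedom, as does adding the covariate, on which the groups do not overlap. The median difference was 0.05 to 0.26 when arrays were left out and 0.50 when only the 5 genes with a mean at or above the median were kept.

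What the replicate numbers mark is not known, and the data do not show that they pair the arrays: deviations of same-numbered arrays from the group means correlated at -0.00, -0.05 and -0.34. With the replicate block 1964 probe sets were called, and of the leukocyte lineage genes CXCR4 and CYBB. CXCR4 was not called when both arrays numbered 1 (0.58) or both numbered 2 (1.06) were left out.

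No called gene changed sign. Among genes not called, the sign turned with the covariate for LCP2 (-0.06), ITGB2 (-0.44), IL2RG (0.19), CD3G (0.06), CD8A (0.23) and MS4A1 (0.03), with array weights for ITGAM (-0.03) and MS4A1 (0.03), with cyclic loess scaling for ITGAM (-0.00), and with probe set means for PTPRC (-0.00), ITGAM (-0.04) and CD4 (-0.02). The cause was not tested. Leaving out arrays turned the sign in 18 genes, with differences of -0.05 to 0.20 for PTPRC, -0.18 to 0.28 for LCP2, -0.04 to 1.74 for LAPTM5, -0.15 to 0.41 for ITGB2, -0.15 to 0.89 for CD48, -0.23 to 0.03 for IL2RG, -0.17 to 0.50 for CSF1R, -0.01 to 0.42 for NCF1, -0.14 to 0.10 for ITGAM, -0.29 to 1.28 for TYROBP, -0.02 to 0.41 for FCER1G, -0.02 to 1.09 for AIF1, -0.00 to 0.36 for CD3E, -0.14 to 0.07 for CD3G, -0.11 to 0.16 for CD4, -0.24 to 0.04 for CD8A, -0.03 to 0.15 for CD2 and -0.06 to 0.03 for MS4A1.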
